A study of Rattus norvegicus with 12 samples.

Results

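The genes described here encode the cytochromes P450 of the Cyp1a, Cyp2b and Cyp2e families, which many foreign chemicals induce in liver, together with Por, the reductase that passes electrons to all microsomal P450s. The members were all non-control probes of the arrays whose gene symbol in the files begins with Cyp1a, Cyp2b or Cyp2e, or is Por. They numbered 14 of 41012 distinct probes and carried 8 of the 7973 gene symbols in the files. Cyp1a1, Cyp2b3, Cyp2e1 and Por had 1 probe each, Cyp1a2, Cyp2b13 and Cyp2b15 had 2 each, and Cyp2b2 had 4. Where a gene had several probes they are numbered here from the brightest, as in Cyp2b2-1. All 14 were well above background in both dyes on all 12 arrays, and all 14 were tested in each of the 6 comparisons.

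The study set liver RNA of 12-week-old Fischer 344 rats side by side on 12 oligonucleotide arrays read in 2 colours. The 6 RNAs came from untreated (intact) males, intact females, hypophysectomised (Hypox) males, Hypox females, and Hypox males given either 1 or 2 injections of growth hormone (GH). Each of the 6 comparisons had 2 arrays with the dyes exchanged, and the series title concerns early GH response genes that differ between the sexes. RNA of intact and Hypox rats was pooled over 3 to 4 livers, with different pools on the 2 arrays of a comparison. For 1 injection a single pool of 4 livers was made, from rats killed at 30, 60 or 90 min. For 2 injections a single pool held 5 livers, with the injections 3 or 4 h apart. Each GH pool was used on both of its arrays, so the spread of the GH comparisons holds no difference between GH-treated animals. GH was given to Hypox males only, so no value here shows its effect in females or in intact rats. Hypophysectomy removes all pituitary hormones and not GH alone.

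In liver, Cyp1a1 and Cyp1a2 are classical targets of the aryl hydrocarbon receptor (AhR), which planar aromatic compounds activate. Cyp1a2 is made constitutively by hepatocytes, whereas Cyp1a1 is low until induced. Cyp2b genes are induced by phenobarbital through the nuclear receptor CAR (Nr1i3), with overlap from the pregnane X receptor PXR (Nr1i2). Cyp2e1 oxidises ethanol, acetone and other small solvents and is known to be raised by fasting and diabetes. Por, anchored in the same membrane, draws its electrons from NADPH. Male rats release GH in pulses and females almost continuously, and the pattern is known to set the sex-specific P450s of rat liver.

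RefSeq promoter sequence (build GRCr8) is shown for 4 of the genes, chosen because these members took different directions after Hypox. Sequence was also available for other Cyp2b genes, among them Cyp2b12, Cyp2b15 and Cyp2b21. Those windows were compared with that of Cyp2b2 by identity only, and their motif matches are not given. Each line gives the 225 bases from 250 to 26 bases before the start site used in the RefSeq table, 5′ to 3′ on the gene's strand. Capitals mark matches on either strand to 3 motifs. The first was ATAAAA, which resembles the box upstream of many start sites. The second was TTCNNNGAA, the form bound by STAT factors, which act below the GH receptor. The third was GCGTG, the core bound by AhR. The motifs did not overlap each other.
Cyp1a2: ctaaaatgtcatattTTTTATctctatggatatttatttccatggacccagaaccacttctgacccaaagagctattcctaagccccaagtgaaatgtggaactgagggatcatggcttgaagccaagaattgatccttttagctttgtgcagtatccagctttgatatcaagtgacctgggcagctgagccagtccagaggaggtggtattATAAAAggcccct
Cyp2b2: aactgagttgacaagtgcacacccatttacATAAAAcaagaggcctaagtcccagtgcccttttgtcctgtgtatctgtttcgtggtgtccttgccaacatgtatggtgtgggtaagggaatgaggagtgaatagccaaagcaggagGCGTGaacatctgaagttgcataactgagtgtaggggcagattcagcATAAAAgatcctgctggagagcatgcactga
Cyp2b3: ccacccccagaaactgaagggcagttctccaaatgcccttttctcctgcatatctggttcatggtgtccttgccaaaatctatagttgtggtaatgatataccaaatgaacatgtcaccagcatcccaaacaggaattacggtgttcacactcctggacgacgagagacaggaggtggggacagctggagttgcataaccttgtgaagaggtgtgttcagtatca
Cyp2e1: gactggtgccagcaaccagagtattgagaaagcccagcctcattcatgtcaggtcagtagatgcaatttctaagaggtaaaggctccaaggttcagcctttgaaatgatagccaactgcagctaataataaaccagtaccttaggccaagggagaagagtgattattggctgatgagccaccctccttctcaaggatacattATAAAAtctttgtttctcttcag
The windows lie at chr8:66978175-66978399 on the minus strand for Cyp1a2, and on the plus strand at chr1:90722031-90722255 for Cyp2b2, chr1:90780242-90780466 for Cyp2b3 and chr1:205269717-205269941 for Cyp2e1. ATAAAA occurred in Cyp1a2 (38 and, on the other strand, 235 bases before the start), Cyp2b2 (56 and 220 bases) and Cyp2e1 (48 bases), and in 17.1% of 33469 promoters of the table. Cyp2b3 held none of the 3 motifs. GCGTG occurred in Cyp2b2 alone of the 4 (103 bases before the start), and in 23.6% of all promoters. TTCNNNGAA was in none of the 4 and in 6.99% of all promoters. Over the aligned bases the Cyp2b2 window was 96.2% identical to that of Cyp2b1 (200 of 208 bases), 86.5% to Cyp2b21, 84.7% to Cyp2b14 and Cyp2b15, 79.4% to Cyp2b3 and 75% to Cyp2b12. The start site used for Cyp2b2 and for Cyp2b3 lies inside the gene span that RefSeq lists. A match is a description of the letters and shows no bound factor.

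Hypophysectomy moved nearly all members, in both directions, and every member that GH moved was moved downward. Calls rest on limma's test, with an adjusted p under 0.05 over all tested probes. Values are log2 ratios from n = 2 arrays, and their SE comes from the spread shared over all 12 arrays. In Hypox against intact males 6 probes rose and 7 fell, 13 of 14, where 37.5% of all tested probes were called, 19.0% higher and 18.5% lower. In Hypox against intact females 6 rose and 6 fell, 12 of 14, beside 36.3% of all probes, 17.9% higher and 18.5% lower. Intact males were lower than intact females at 3 probes and higher at 0, beside 15.5% called over all probes, 8.07% higher and 7.42% lower. Between Hypox males and Hypox females limma called 0 of the 14 (3 had an unadjusted p under 0.05), and 0.949% of all probes, 0.530% higher and 0.419% lower. One injection of GH lowered 6 member probes and raised 0, where 14.3% of all probes were called, 7.49% higher and 6.79% lower. After 2 injections 10 member probes were lower and 0 higher, where 30.8% of all probes were called, 15.0% higher and 15.8% lower. Apart from Cyp2e1 and, after 2 injections, Cyp1a1, the probes lowered by GH were all Cyp2b probes. Several of these may read the same RNA, so the counts are not counts of separate genes. The members' median log2 ratio was -0.40 after 1 injection and -0.91 after 2, beside -0.00076 and -0.0093 over all tested probes.

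**Figure D1:**
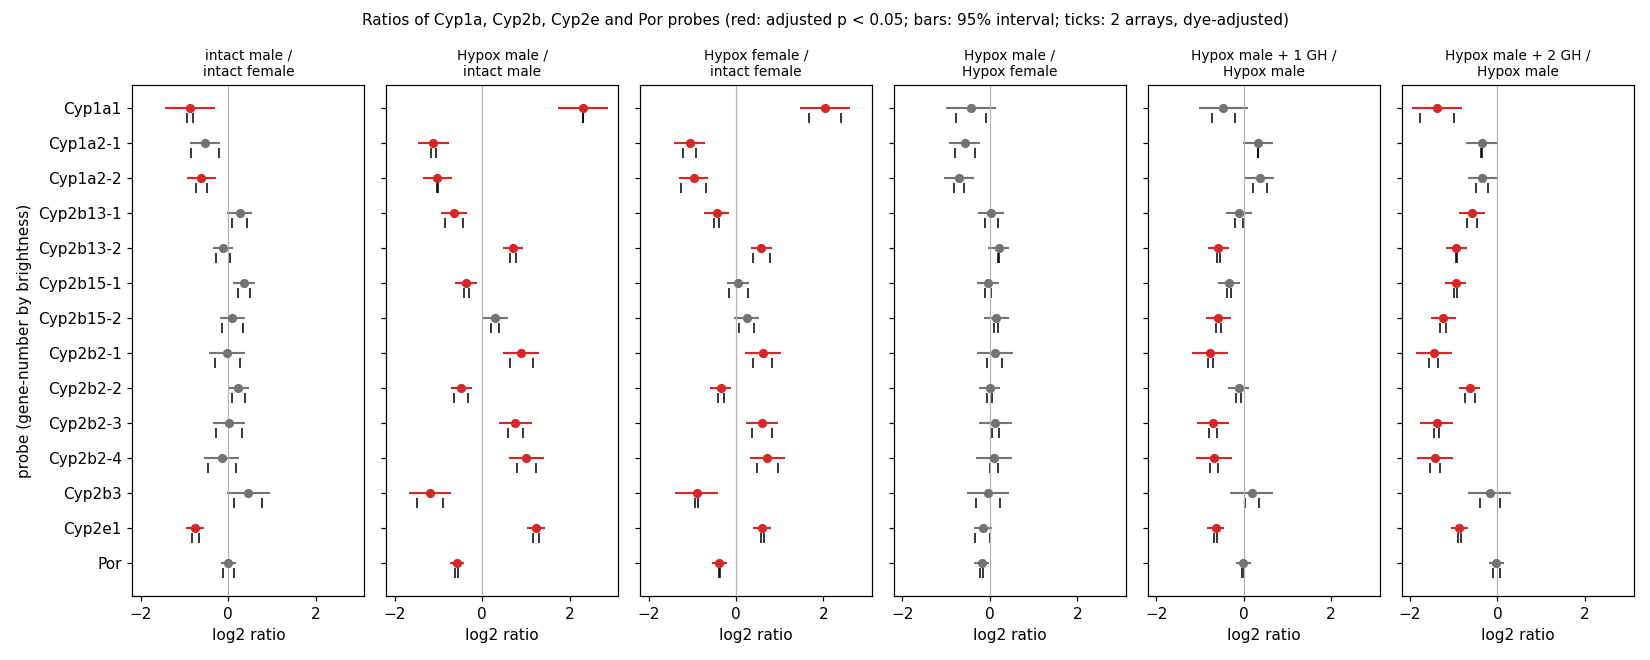
Log2 ratios (x axis) of the 14 member probes (y axis) in the 6 comparisons, 1 panel each. Points are limma estimates, bars 95% intervals, short ticks the 2 arrays after removal of the fitted dye effect, and red marks adjusted p under 0.05. Cyp1a1 (2.30 in males, 2.03 in females) and Cyp1a2-1 (-1.12 and -1.05) lie on opposite sides of 0 in the Hypox panels, and all red points of the GH panels lie below 0.

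These counts depend on the number of arrays and on the normalization. With each array centred on its median in place of loess, the SEs of member ratios were 0.241 to 0.489 in place of 0.0720 to 0.246. Only Cyp1a1 then passed in the Hypox comparisons and no member in the others, while no called value changed sign. Without array 1 or array 2 of the 1-injection comparison 0 of 6 calls held (7 and 5 members at an unadjusted p under 0.05). In Hypox against intact females 4 held without array 1 and 7 without array 2.

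The 2 Cyp1a genes went opposite ways when the pituitary was removed. Cyp1a1 (chromosome 8, 66991940 to 66998014; all gene positions are RefSeq's on GRCr8), which hydroxylates polycyclic aromatic hydrocarbons, read 7.17 and 7.27 (Alexa 647, slide 2) and 8.14 and 8.18 (Alexa 555, slide 3) on the log2 intensity scale in the 4 channels of intact males. The 4 channels of intact females read 8.39, 8.50, 8.57 and 8.70. Hypox males ranged from 9.87 to 10.23 with a median of 10.13 over 8 channels, and Hypox females read 9.81, 9.85, 11.31 and 11.45. No channel of Hypox liver without GH fell to the level of an intact one. Cyp1a1 rose 4.93-fold in males (log2 2.30 ± 0.25, adjusted p = 0.000294) and 4.09-fold in females (2.03 ± 0.25, adjusted p = 0.000534). These were the largest changes of any member in either sex.

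The 2 high Cyp1a1 readings of Hypox females came from slide 2 in Alexa 555 and the 2 low ones from slide 3 in Alexa 647. From the readings of Hypox females or of intact males alone, pool, slide and dye cannot be told apart. Hypox males, read in both dyes, gave 10.16 (Alexa 647) and 10.10 (Alexa 555) on slide 2. On slide 3 they gave 9.96 (Alexa 647) and 10.23 (Alexa 555). Intact females, in the same dye order, gave 8.39 and 8.50 on slide 2 and 8.57 and 8.70 on slide 3. The part of the pool in the gap of Hypox females was not tested. The dye term of Cyp1a1 was -0.52 for Alexa 647 (adjusted p = 0.0175). It was fitted over all arrays, those of Hypox females and intact males included. Differences between their pools or slides may therefore enter it, and with it the dye-adjusted values of every array. The 2 arrays of the female comparison gave 2.40 and 1.66 after removal of the dye effect, against 2.31 and 2.30 in males. Cyp1a1 was 1.84-fold lower in intact males than in intact females (log2 -0.88 ± 0.25, adjusted p = 0.0477). That call was lost with no filter on dim probes (adjusted p = 0.0589), with either array left out (0.272 and 0.360), and with the replicate number as a block (0.0649). One injection of GH gave -0.46 ± 0.25, which did not pass (adjusted p = 0.259). After 2 injections Cyp1a1 was 2.61-fold lower (-1.38 ± 0.25, adjusted p = 0.00326), with arrays at -1.25 and -1.52 before removal of the dye effect and at -1.77 and -1.001 after it. Without the first array of that comparison it read -0.92 and missed the threshold (adjusted p = 0.107).

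Cyp1a2 (chromosome 8, 66971261 to 66978149), the caffeine- and arylamine-oxidising enzyme of the adult liver, fell after Hypox in both sexes. Its brighter probe, Cyp1a2-1, read 15.83, 16.25, 16.27 and 16.33 in intact males and 16.45, 16.54, 16.70 and 16.81 in intact females. Hypox males ranged from 15.07 to 15.39 with a median of 15.27, and Hypox females read 15.55, 15.60, 15.64 and 16.02. Males lay below females both before and after Hypox, with no overlap. Cyp1a2-1 gave -1.12 ± 0.15 in males (adjusted p = 0.000965) and -1.05 ± 0.15 in females (adjusted p = 0.0013). Cyp1a2-2, the other probe of that gene symbol, gave -1.03 ± 0.15 (adjusted p = 0.00111) and -0.96 ± 0.15 (adjusted p = 0.00155).

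The sex difference of Cyp1a2 was near the threshold. Cyp1a2-1 gave -0.53 ± 0.15 in intact males against females (adjusted p = 0.0517), from arrays at -0.22 and -0.85, and Cyp1a2-2 gave -0.61 ± 0.15 (adjusted p = 0.0241). The Cyp1a2-2 call was lost on the deposited processed signals (adjusted p = 0.0818) and without either array (0.120 and 0.338), while Cyp1a2-1 passed without the first array (-0.91, 0.0176). Between Hypox males and females the 2 probes gave -0.57 (adjusted p = 0.155) and -0.70 (adjusted p = 0.0778), neither called. GH changed neither probe beyond the threshold, with 0.33 and 0.37 after 1 injection and -0.36 and -0.35 after 2.

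**Figure D2:**
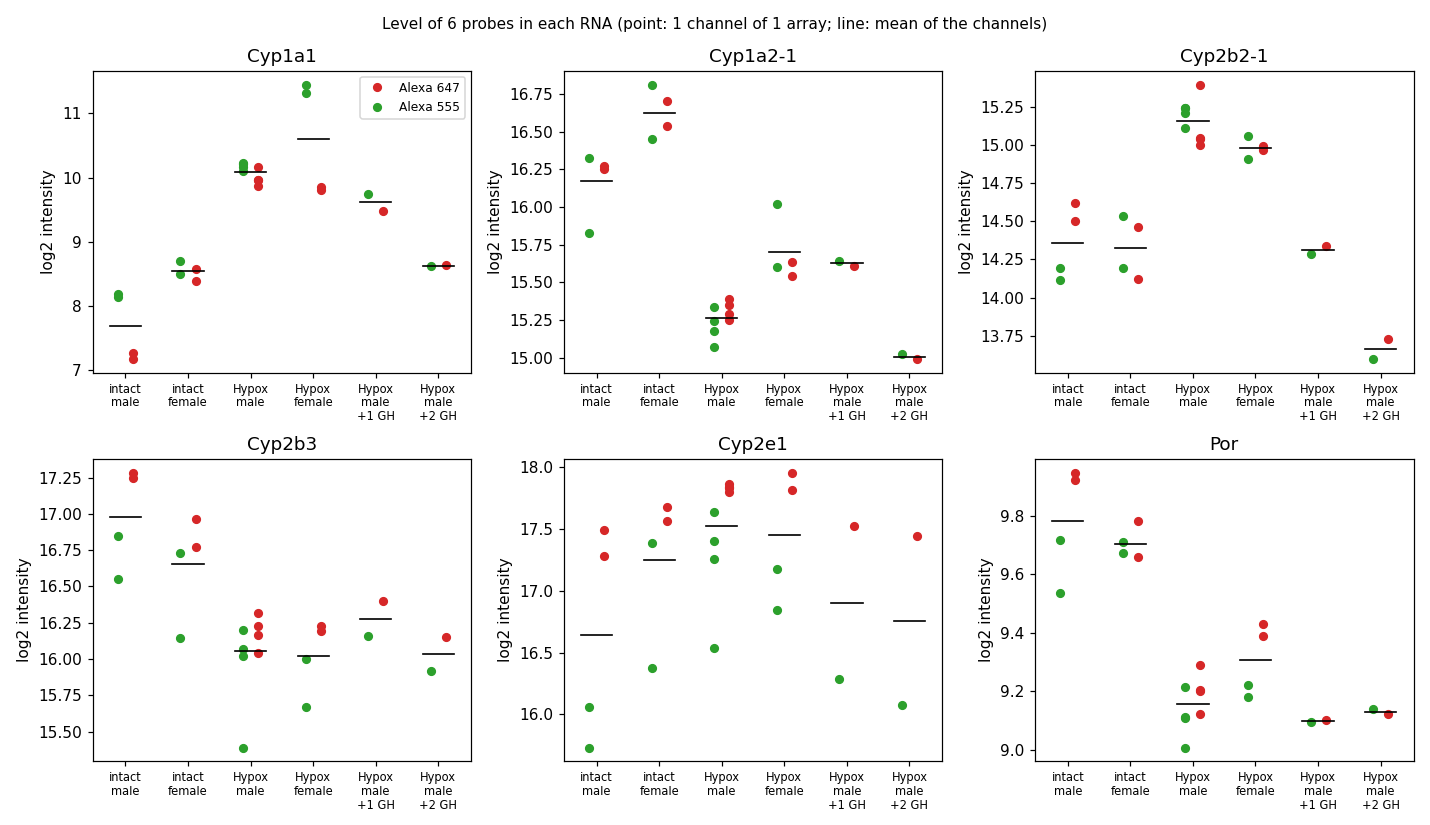
Log2 intensity (y axis) of 6 member probes in the 6 RNAs (x axis), 1 point per array channel coloured by dye, with a line at the mean. Cyp1a1 is above 9.8 in every Hypox channel without GH and under 8.8 in every intact one. Cyp1a2-1 has lower means after Hypox, with 1 intact male channel (15.83) below a Hypox female one (16.02). The Alexa 647 points of Cyp2e1 lie above the Alexa 555 points of the same RNA.

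Over all channels Cyp1a1 was ordered Hypox female (10.60 ± 0.90, mean ± SD, n = 4 channels), Hypox male (10.08 ± 0.13, n = 8), 1 GH (9.62, n = 2), 2 GH (8.63, n = 2), intact female (8.54 ± 0.13, n = 4) and intact male (7.69 ± 0.54, n = 4). Hypox females overlapped Hypox males, and 2 GH overlapped intact females, while the other neighbours in that order did not overlap. For Cyp1a2-1 the order was intact female (16.63 ± 0.16), intact male (16.17 ± 0.23), Hypox female (15.70 ± 0.22), 1 GH (15.63), Hypox male (15.26 ± 0.10) and 2 GH (15.01). Only intact male with Hypox female and Hypox female with 1 GH overlapped there. Channels of an RNA share pools and are not separate animals.

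Of the 9 Cyp2b probes, 4 rose and 3 fell after Hypox in both sexes, while Cyp2b15-1 fell in males only by the calls and Cyp2b15-2 passed in neither sex. After 2 GH injections 8 of the 9 fell, and Cyp2b3 did not pass. Cyp2b2 (chromosome 1, 90722243 to 90736272) encodes a major phenobarbital-inducible P450. Its brightest probe, Cyp2b2-1, read 14.12, 14.19, 14.50 and 14.62 in intact males and 14.12, 14.20, 14.46 and 14.53 in intact females. Hypox males ranged from 15.00 to 15.40 with a median of 15.16, and Hypox females read 14.91, 14.97, 15.00 and 15.06. Intact males and females overlapped, and all Hypox channels without GH lay above all intact ones. The probe rose by 0.90 ± 0.18 in males (1.86-fold, adjusted p = 0.00555) and by 0.61 ± 0.18 in females (1.53-fold, adjusted p = 0.0293). Cyp2b2-3 rose by 0.76 ± 0.16 and 0.59 ± 0.16, and Cyp2b2-4 by 1.01 ± 0.18 and 0.72 ± 0.18. The female call of Cyp2b2-1 was lost without array 1 (0.35, adjusted p = 0.415), without array 2 (0.87, 0.0560) and on the deposited processed signals (0.60, 0.0573). Cyp2b2-3 and Cyp2b2-4 lost theirs without array 1 (adjusted p = 0.389 and 0.290). In males Cyp2b2-1 and Cyp2b2-3 missed the threshold without array 2 (0.58 and 0.55, adjusted p = 0.0750 and 0.0862).

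The fourth Cyp2b2 probe went the other way. Cyp2b2-2 read 14.55, 14.56, 14.64 and 14.71 in intact males, and Hypox males ranged from 13.99 to 14.55 with a median of 14.27. It gave -0.48 ± 0.10 in males (adjusted p = 0.00823) and -0.35 ± 0.10 in females (adjusted p = 0.0317), both called. The male call was lost without array 1 (-0.29, adjusted p = 0.147) and the female call without either array (0.124 and 0.296). Its ratio followed that of Cyp2b2-1 over the 12 arrays with r = 0.225, whereas Cyp2b2-1, Cyp2b2-3 and Cyp2b2-4 followed each other with r from 0.991 to 0.997. These correlations describe 12 arrays that share pools. Cyp2b15-1 shares accession entries with Cyp2b2-3 and Cyp2b2-4 in the files' annotation. The files place all Cyp2b2 probes between 81430699 and 81437445 on the plus strand of chromosome 1, in a build they do not state. These positions do not settle which of the near-identical Cyp2b transcripts each probe binds. The identity of the RNA behind a Cyp2b probe is therefore uncertain.

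The 2 probes of Cyp2b13 also went opposite ways. The files name them Cyp2b13, with an accession that RefSeq now lists as Cyp2b21 (chromosome 1, 91013781 to 91042752). They differ in brightness, with a mean log2 intensity over the arrays of 14.52 for Cyp2b13-1 and 8.41 for Cyp2b13-2. The files place Cyp2b13-1 at 81659612 on the plus strand and Cyp2b13-2 at 81748936 on the minus strand of chromosome 1. The 2 are therefore not equal readings of 1 RNA. In Hypox males Cyp2b13-1 gave -0.65 ± 0.13 (95% interval -0.95 to -0.35), and Cyp2b13-2 gave 0.70 ± 0.10 (0.47 to 0.94), both called. In females they gave -0.45 ± 0.13 and 0.58 ± 0.10, also called. Without array 1 the Cyp2b13-1 call in males and both calls in females were lost (adjusted p from 0.0912 to 0.154), and without array 2 the female call of Cyp2b13-1 (0.231). Cyp2b13-1 followed Cyp2b2-2 with r = 0.973, and Cyp2b13-2 followed Cyp2b2-1 with r = 0.982, both closer than the r of -0.0827 between the 2 Cyp2b13 probes.

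Cyp2b15-1 (Cyp2b15, chromosome 1, 91221865 to 91234169) fell in Hypox males (-0.36 ± 0.11, adjusted p = 0.0309) and gave 0.05 ± 0.11 in females, which did not pass. Its male call was lost without either array (adjusted p = 0.231 and 0.0688). Cyp2b15-2, whose accession RefSeq now lists as Cyp2b12 (chromosome 1, 91135294 to 91147094), gave 0.30 ± 0.12 in males and 0.24 ± 0.12 in females, neither called. In males its unadjusted p was 0.0434. The 2 probes of that symbol followed each other with r = 0.792.

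Cyp2b3 (chromosome 1, 90780468 to 90859852), a family member known not to respond to phenobarbital, fell most among the Cyp2b probes. Intact males read 16.55, 16.84, 17.25 and 17.28 and intact females 16.15, 16.73, 16.77 and 16.96. Hypox males ranged from 15.39 to 16.32 with a median of 16.12, and Hypox females read 15.67, 16.00, 16.20 and 16.23. Male ranges did not overlap, and female ranges did. Cyp2b3 fell 2.29-fold in males (-1.19 ± 0.21, adjusted p = 0.00339) and 1.86-fold in females (-0.90 ± 0.21, adjusted p = 0.0125). The female call was lost without either array (adjusted p = 0.148 and 0.102), and the male call without array 1 (-0.83, adjusted p = 0.0600). Alexa 647 raised its ratio by 0.36 (adjusted p of the dye term = 0.0347). GH gave 0.19 ± 0.21 after 1 injection and -0.18 ± 0.21 after 2, neither called.

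**Figure D3:**
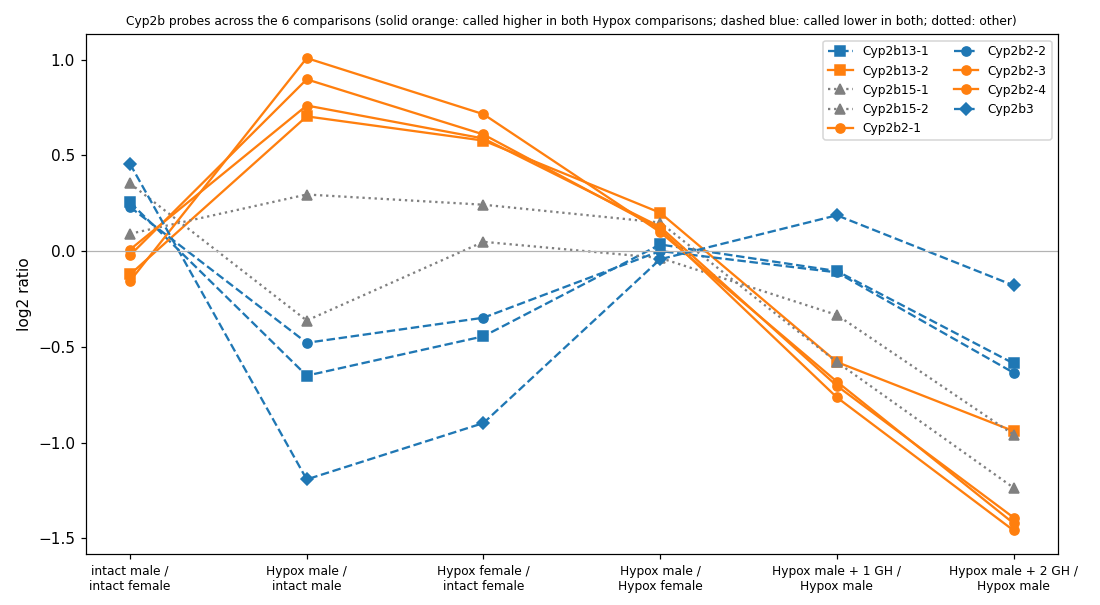
Log2 ratios (y axis) of the 9 Cyp2b probes in the 6 comparisons (x axis), with lines joining the points of a probe only to guide the eye. Solid orange probes were called higher after Hypox in both sexes, dashed blue ones lower in both, and dotted grey ones neither. In the 2-injection comparison every probe lies below 0, from -1.46 for Cyp2b2-1 to -0.18 for Cyp2b3.

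GH lowered Cyp2b RNA in Hypox males. In the 1-injection comparison Cyp2b2-1 gave -0.71 and -0.82 on its 2 arrays and was 1.70-fold lower (-0.76 ± 0.18, adjusted p = 0.0259). Cyp2b2-3 (-0.70 ± 0.16), Cyp2b2-4 (-0.68 ± 0.18), Cyp2b13-2 (-0.58 ± 0.10) and Cyp2b15-2 (-0.58 ± 0.12) were called lower too. With the replicate number as a block Cyp2b2-4 missed the threshold (adjusted p = 0.0511). Of the probes that had fallen after Hypox, Cyp2b2-2 gave -0.11 ± 0.10 and Cyp2b13-1 gave -0.10 ± 0.13, neither called. After 2 injections Cyp2b2-1 gave -1.36 and -1.56 and was 2.75-fold lower (-1.46 ± 0.18, adjusted p = 0.000487). Cyp2b2-3 (-1.39), Cyp2b2-4 (-1.42), Cyp2b15-2 (-1.24), Cyp2b15-1 (-0.96) and Cyp2b13-2 (-0.94) were lower as well. So were Cyp2b2-2 (-0.64 ± 0.10) and Cyp2b13-1 (-0.59 ± 0.13), which had already fallen after Hypox. In all, 8 of 9 Cyp2b probes were called lower after 2 injections, all but Cyp2b3. The Cyp2b13-1 call was lost without either array (adjusted p = 0.0506 and 0.180) and the Cyp2b2-2 call without array 2 (0.0678).

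In levels, Cyp2b2-1 was ordered Hypox male (15.16 ± 0.14), Hypox female (14.98 ± 0.07), intact male (14.36 ± 0.24), intact female (14.33 ± 0.20), 1 GH (14.31) and 2 GH (13.66). The GH channels read 14.29 and 14.34 after 1 injection, within the intact ranges, and 13.59 and 13.73 after 2, below every intact channel. The GH arrays were all on slide 1 and the intact RNAs on slides 2 and 3, so that last order sets RNAs of different slides side by side. Hypox male RNA, present on every slide, read 15.00 to 15.24 on slide 1 and 15.05 to 15.40 on slides 2 and 3. The part of the slide in the order was not tested. No Cyp2b probe differed between intact males and females beyond the threshold. The 9 ratios ran from -0.16 for Cyp2b2-4 to 0.46 for Cyp2b3, and the nearest to a call was Cyp2b15-1 (0.35 ± 0.11, adjusted p = 0.0639). Among Hypox males and females they ran from -0.04 to 0.20.

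Cyp2e1 (chromosome 1, 205269967 to 205280365) rose after Hypox, more in males than in females, and fell with GH. It had 10 spots per array, and its reading depended on the dye. Alexa 647 raised its ratio by 0.94 (adjusted p of the dye term = 1.06e-05). Intact males read 15.73 and 16.06 in Alexa 555 and 17.28 and 17.49 in Alexa 647. Hypox males ranged from 16.54 to 17.64 over 4 channels of Alexa 555 and from 17.80 to 17.86 over 4 of Alexa 647. Within each dye, Hypox males lay above intact males without overlap. Intact females read 16.37 and 17.38 in Alexa 555 and 17.56 and 17.68 in Alexa 647, while Hypox females read 16.84 and 17.18 in Alexa 555 and 17.82 and 17.95 in Alexa 647. In females the Alexa 555 ranges overlapped and the Alexa 647 ranges did not.

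Before removal of the dye effect the 2 arrays took opposite signs in 5 of 6 comparisons, and in Hypox against intact males they gave 0.36 and 2.11. After it they gave 1.30 and 1.16, and the ratio was 1.23 ± 0.087 (2.35-fold, adjusted p = 3.75e-05). In females the adjusted arrays gave 0.56 and 0.64, a rise of 0.60 ± 0.087 (1.51-fold, adjusted p = 0.00127). Intact males were 1.69-fold lower than intact females (-0.76 ± 0.087, adjusted p = 0.000706), with adjusted arrays at -0.84 and -0.68. Hypox males against Hypox females gave -0.16 ± 0.087, which did not pass (adjusted p = 0.471).

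One injection of GH lowered Cyp2e1 1.56-fold (-0.64 ± 0.087, adjusted p = 0.0028) and 2 injections lowered it 1.83-fold (-0.87 ± 0.087, adjusted p = 0.000169). The arrays, dye effect removed, gave -0.61 and -0.68, then -0.84 and -0.90. Fitted on the arrays of each comparison alone, with no dye term, the 5 ratios kept their values and lost their calls. The lowest adjusted p was then 0.125. The 1-injection call was also lost without either array (0.0584 and 0.0866). All 240 spot readings of the probe came from the scanner's low-gain scan scaled up, none was saturated, and 9 of 120 spots were outliers left out. The same low-gain source held for all 24 readings of Cyp1a2-1 and of Cyp2b3, and other probes mixed the scans by dye. Low-gain readings made up 12 of 12 in red and 6 of 12 in green for Cyp2b2-1, 12 and 1 for Cyp2b13-1, 11 and 0 for Cyp2b2-2 and 7 and 0 for Cyp2b2-3. The part of the scan in these values was not tested. The ranges of all neighbours in the order of its levels overlapped over both dyes, from Hypox male (17.52 ± 0.46) to intact male (16.64 ± 0.88).

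Por (chromosome 12, 26587674 to 26655612) fell after Hypox in both sexes and did not pass with GH. Intact males read 9.54, 9.72, 9.92 and 9.95, intact females 9.66, 9.67, 9.71 and 9.78. Hypox males ranged from 9.01 to 9.29 with a median of 9.16, and Hypox females read 9.18, 9.22, 9.39 and 9.43. All Hypox channels lay below all intact ones, and the 2 intact groups overlapped. The dye term of Por was 0.12 for Alexa 647 (adjusted p = 0.0352). Por fell 1.50-fold in males (-0.58 ± 0.072, adjusted p = 0.000589) and 1.30-fold in females (-0.38 ± 0.072, adjusted p = 0.00475). The female value was -0.40 and -0.35 without the first or second array, with adjusted p of 0.0585 and 0.0787. Intact males against females gave 0.00 ± 0.072 with a 95% interval of -0.16 to 0.17. The GH ratios were -0.01 (interval -0.17 to 0.16) and -0.02 (-0.19 to 0.14). A change of the size seen after Hypox in males lies outside these intervals. Each GH pool was used on both of its arrays, so the intervals hold no difference between GH-treated animals.

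The response to Hypox differed between the sexes at 2 member probes, where 13.5% of all tested probes were called for that difference, 6.48% higher and 7.01% lower. It was estimated in the same model as the mean of its 2 direct estimates around the loop of 4 RNAs. Cyp2e1 rose more in males, by 0.62 ± 0.087 (adjusted p = 0.00279). That call was lost only with median centring and on the loop arrays without a dye term (adjusted p = 0.744), among the alternatives tested. Cyp2b15-1 gave -0.40 ± 0.11 (adjusted p = 0.0462), a call lost with median centring, in 4 other alternatives and without 7 of the 8 loop arrays taken singly (adjusted p up to 0.173). For Cyp1a1 the difference was 0.36 ± 0.25, with a 95% interval of -0.21 to 0.93. For Cyp1a2-1 it was -0.05 (-0.40 to 0.30), and for Cyp2b2-1 0.21 (-0.20 to 0.62). Por gave -0.20 ± 0.072, with an unadjusted p of 0.0254 and an adjusted p of 0.118, and passed (-0.27, 0.0486) without the second array of intact males against females.

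**Figure D4:**
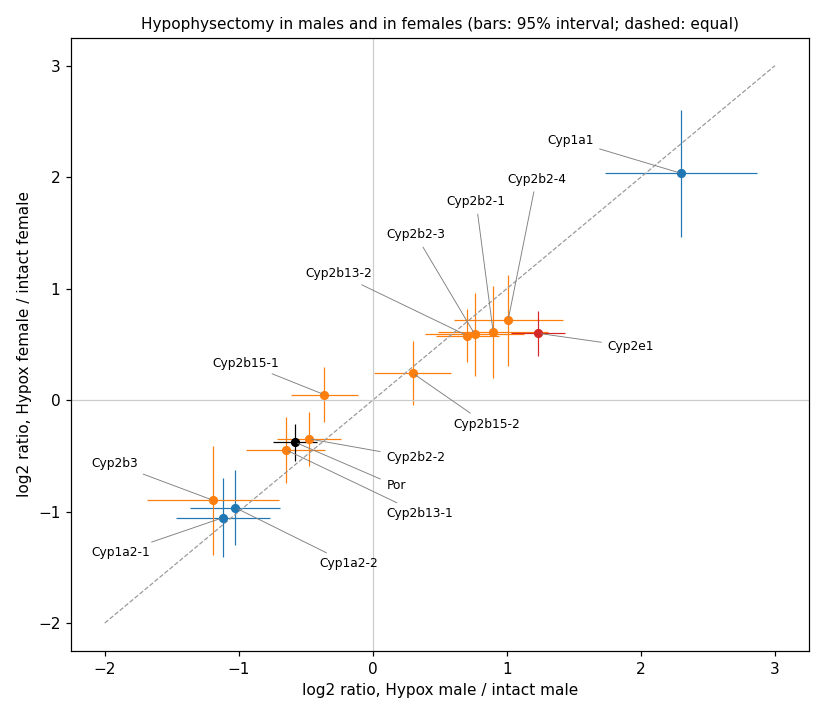
Log2 ratio of Hypox to intact in females (y axis) against males (x axis) for the 14 member probes, with 95% intervals as bars and a dashed line of equal response. Cyp2e1 lies to the right of the line (1.23 in males, 0.60 in females), and Cyp1a1 and both Cyp1a2 probes lie close to it.

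The 2-injection pool was set against the 1-injection pool through Hypox male RNA, which both comparisons share. All 14 estimates were below 0, with a median of -0.64 beside -0.0097 over all probes. Limma called 1 of the 14, where 10.4% of all tested probes were called, 5.56% higher and 4.82% lower. It was Cyp2b15-1 (-0.63 ± 0.15, adjusted p = 0.0387), and 11 had an unadjusted p under 0.05. The Cyp2b15-1 call was lost when any 1 of the 4 GH arrays was left out, with 0 members called. Cyp1a1 gave -0.92 ± 0.35 (adjusted p = 0.147), Cyp1a2-1 -0.69 ± 0.22 (0.0887), Cyp2b2-1 -0.70 ± 0.25 (0.132) and Cyp2e1 -0.23 ± 0.12 (0.30). The 2 pools also differed in time after the first injection, which cannot be told apart from the number of injections.

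Genes of the CAR and PXR pathway moved both ways, with more rises than falls after Hypox and more falls than rises after GH. Of the 24 listed, 22 were on the array. After Hypox 12 rose and 2 fell of 20 tested in males (median log2 0.41), and 9 rose and 4 fell of 21 in females (median 0.24). Beside these stand 19.0% higher and 18.5% lower over all probes in males, and 17.9% and 18.5% in females, and the 4 that fell in females are near that share. Nr1i3 (CAR) rose by 0.62 ± 0.10 in males and 1.20 ± 0.10 in females, and Nr1i2 (PXR) by 0.48 ± 0.053 and 0.41 ± 0.053. Both receptors are named here after their values were seen. The bilirubin transferase Ugt1a1 rose by 1.38 ± 0.12 and 1.42 ± 0.12. The canalicular pump Abcc2 gave -2.44 ± 0.066 and -2.22 ± 0.066, both called, and the P450 Cyp3a18 rose by 0.93 ± 0.13 and 4.28 ± 0.13.

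After 1 GH injection 4 CAR and PXR genes rose and 9 fell of 21 tested (median -0.24), and after 2 injections 2 rose and 10 fell of 22 (median -0.31). Over all probes 7.49% rose and 6.79% fell after 1 injection, and 15.0% and 15.8% after 2. Nr1i3 gave -0.77 ± 0.10 and -1.79 ± 0.10, and Nr1i2 gave -0.50 ± 0.053 and -0.90 ± 0.053, all called. The orphan repressor Nr0b2 (SHP) gave -2.36 ± 0.37 and -3.36 ± 0.37, both called, while Abcc2 rose by 1.28 ± 0.066 and 1.62 ± 0.066. Intact males against females had 4 higher and 7 lower of 21, with Cyp3a18 at 3.56 ± 0.13 and the aldo-keto reductase Akr1b7 at -5.82 ± 0.40. Over all probes 8.07% were higher and 7.42% lower there. The medians over all tested probes lay within 0.01 of 0.

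Genes of the AhR list moved both ways after Hypox. Of 15 listed genes 11 were on the array. In Hypox males 2 rose and 5 fell of 11 tested (median -0.18), and in Hypox females 2 rose and 4 fell of 10 (median -0.14). Over all probes 19.0% rose and 18.5% fell in males, and 17.9% and 18.5% in females, so the number that rose is near the background. The phenol transferase Ugt1a6 gave -1.38 ± 0.065 in males and -0.89 ± 0.065 in females, and the quinone reductase Nqo1 gave -0.25 ± 0.073 and -0.72 ± 0.073, all called. After 1 injection 2 rose and 1 fell of 11, with Nqo1 at 0.88 ± 0.073 and Ugt1a6 at 0.63 ± 0.065. After 2 injections 6 rose and 1 fell of 11, Cyp1b1 by 0.77 ± 0.12 and the hormone Fgf21 by 2.79 ± 0.49 among those that rose. Intact males had 1 higher and 1 lower of 11, with Nqo1 at -0.91 ± 0.073. The shares over all probes were 8.07% higher and 7.42% lower there. They were 7.49% and 6.79% after 1 injection, and 15.0% and 15.8% after 2. In intact males and after GH the counts of 1 are near those shares. The 2 that rose after 1 injection and the 6 that rose after 2 are above them. The falls after Hypox, 5 of 11 in males and 4 of 10 in females, are also above their share of 18.5%.

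Electron donors and membrane partners of the P450s were mixed. Of 13 genes tested in males after Hypox, 2 rose and 3 fell, and in females 2 rose and 6 fell. Beside these stand 19.0% higher and 18.5% lower over all probes in males, and 17.9% and 18.5% in females. All but the 6 that fell in females are near those shares. The NADPH-making malic enzyme Me1 gave -2.63 ± 0.12 and -2.82 ± 0.12, both called. Cytochrome b5 of the microsomes, Cyb5a, rose by 0.59 ± 0.051 in males. After 1 injection 2 rose and 3 fell of 13, beside 7.49% higher and 6.79% lower over all probes. After 2 injections 1 rose and 6 fell, among the latter Cyb5a at -0.68 ± 0.051 and the P450-binding protein Pgrmc1 at -0.94 ± 0.098. The shares over all probes were then 15.0% higher and 15.8% lower.

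Heme, which every P450 carries, is made by a pathway whose first enzyme in liver is Alas1. After Hypox, 1 of 12 heme genes rose and 6 fell in males, and 3 rose and 5 fell in females. Alas1 gave -1.36 ± 0.22 and -1.53 ± 0.22, and ferrochelatase, Fech, gave -0.85 ± 0.078 and -0.66 ± 0.078, all called. After 1 injection 1 rose and 1 fell, and after 2 injections 2 rose and 3 fell, with heme oxygenase Hmox1 up by 0.78 ± 0.055. Other microsomal detoxification genes had 8 higher and 4 lower of 20 in Hypox males, 7 and 3 in Hypox females, 3 and 4 after 1 injection and 2 and 13 after 2. The flavin monooxygenase Fmo4 fell by 1.05 ± 0.069 after 2 injections. The shares over all probes were 19.0% higher and 18.5% lower in Hypox males, and 17.9% and 18.5% in Hypox females. With GH they were 7.49% and 6.79% after 1 injection and 15.0% and 15.8% after 2. The heme rises after Hypox, the heme counts after GH and the detoxification falls after Hypox are near those shares.

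Genes that handle Cyp2e1 substrates and ketones had 5 higher and 2 lower of 15 in Hypox males and 5 higher and 6 lower in Hypox females. Beside these stand 19.0% higher and 18.5% lower over all probes in males, and 17.9% and 18.5% in females. The 2 that fell in males are near that share. Alcohol dehydrogenase Adh1 rose by 1.99 ± 0.19 in males, catalase, Cat, by 0.74 ± 0.057 in males and 0.88 ± 0.057 in females, and Aldh1b1 gave -1.36 ± 0.083 and -1.73 ± 0.083, both called. In the test of the sex difference Adh1 gave 1.78 ± 0.19 (adjusted p = 0.000656). After 1 injection 0 rose and 3 fell of 15, and after 2 injections 1 rose and 6 fell, among the latter Adh1 at -1.03 ± 0.19 and Cat at -0.80 ± 0.057. The shares over all probes were 7.49% higher and 6.79% lower after 1 injection, and 15.0% and 15.8% after 2.

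By the correlation of the dye-adjusted log2 ratio over the 12 arrays, among 5930 named genes, those nearest to each member were as follows. Cyp2e1 was followed most closely by Kmo (r = 0.991), M6pr (0.988) and Npff (0.986). Cyp1a1 was followed by Eef1a1 (0.985), mrpl9 (0.980) and Impa2 (0.979), and Cyp1a2-1 by Cxcl4 (0.944), Sh3gl3 (0.937) and Wfdc1 (0.936). The nearest to Cyp2b2-1 were Per2 (0.978), Senp8 (0.977) and Gpr37 (0.977), to Cyp2b3 Spon2 (0.976), Pc (0.974) and Dnaja4 (0.972), and to Por Tmem69 (0.977), Ccne1 (0.977) and Apoa1 (0.976). For Cyp2b13-1 they were Cndp2 (0.985), Pon2 (0.965) and Inhba (0.955), and for Cyp2b15-1 Acot12 (0.937), Sfxn5 (0.930) and Gclc (0.927). Among the members themselves Cyp2e1 and Por ran opposite (r = -0.959), as did Cyp1a1 and Cyp1a2-1 (r = -0.641). The arrays share pools, so these values are descriptions without a test.

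All 8 hepatocyte markers were above background in every channel, with a summed log2 level between 18.52 and 20.57. After Hypox 1 hepatocyte marker rose and 2 fell of 8 in males, and 2 rose and 1 fell in females. These counts are near the shares over all probes, 19.0% higher and 18.5% lower in males and 17.9% and 18.5% in females. Markers of other cells are to be read beside the same shares. Of 3 erythroid genes all 3 fell in both sexes, and their summed level went from 13.05 to 13.87 in intact males to 9.87 to 11.00 in Hypox males, and from 13.02 to 13.54 to 11.63 to 12.13 in females. After GH it was 12.03 to 12.07 (1 injection) and 11.14 to 11.19 (2 injections). Bile duct markers had 3 higher of 6 tested in each sex, with a summed level of 11.22 to 11.53 over intact and 12.69 to 13.27 over Hypox channels without GH. Endothelial markers had 4 higher of 6 in males and of 5 in females, lymphocyte markers 3 and 2 higher of 6, and macrophage markers 1 higher and 1 lower of 7 in males and 3 higher and 1 lower in females. Macrophage markers also had 5 higher and 1 lower of 7 after 1 GH injection, beside 7.49% higher and 6.79% lower over all probes. Stellate cell markers had 2 higher and 2 lower of 6 in males and 1 lower in females, and pancreatic ones 1 lower of 3 and, in females, 1 higher and 2 lower of 5. Of all markers on the array 1, a lymphocyte one, was above background in no channel. The part of these cells in the members' ratios was not tested. In whole liver RNA, fewer cells of a type and less RNA per cell cannot be told apart.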

How the data were processed

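Relative RNA levels were measured on two-channel Agilent arrays of pooled rat liver RNA. Per the file headers, the deposited scanner files hold mean and local background intensity of 45018 spots per colour. Agilent's Feature Extraction (version 9.1.3.1) wrote them. They also hold the software's processed intensity and a deposited log10 ratio, with flags for background, saturation and outliers. The authors' value table, compared with these files, tracked log2 ratios (channel 2 over channel 1) of the processed signals, with r of 0.953 or more and 76.2% to 93.5% of rows per array within 0.01. How the other rows were made is not given, and column medians ran from -0.13 to 0.15. Aligners do not apply, and no other processing is given in the sources used here.

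Mean intensities were corrected by normexp (offset 50) and by loess on every array with limma 3.58.1 in R 4.3.3 (tables read by data.table, version 1.17.8), with 1639 control spots and outlier spots given no weight. Spots of a probe were averaged. Probes entered a comparison where either RNA exceeded background clearly on both of its arrays, and 29008 were fitted. Per channel 58.4% to 71.1% of probes were above background, and precision is limited by the array number. The model held 1 coefficient per comparison and 1 for the dye over all 12 arrays, leaving 5 residual degrees of freedom (3.08 prior), so that comparisons share an estimate of the spread. Adjustment of p-values (Benjamini-Hochberg) ran over every probe tested in a comparison. The p-values measure the spread between pools or, for the GH pools, between arrays. The shared spread joins GH arrays, which carry the same GH pool, with arrays of different pools, for which it may be too small. Levels are log2 intensity after loess and Aquantile normalization.

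The members, gene lists and rules were chosen with earlier results of these data known. All members were named in each comparison. Of a list, up to 4 called genes per comparison with the largest change in the same direction on both arrays could be named, a gene standing for its brightest probe, and the 3 genes closest to a member by correlation. Symbols were matched to RefSeq genes through accessions (10735 probes), symbols (5571) or synonyms (3729). Slides were read from the files: slide 1 held the GH arrays, slide 2 the first and slide 3 the second array of the other comparisons, so each array value there is the within-slide value. The label of the first 1-injection array leaves the hormone out, and its title was used. In data simulated for intact males against females (25714 probes), 96.6% of changes of log2 1 were recovered. The simulated noise was independent between arrays and drawn at the fit's own spread. It held no shared pools and no normalization error, so recovery in the real data may be lower. Alternatives tried were median centring, the deposited processed signals, filters, a fit per comparison, the replicate number and the slide as blocks, levels without normalization between arrays, and leaving out arrays. Leaving out each single array from the contrasts was added after seeing the data.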

Additional observations from a re-analysis of the deposited data

Results flagged for a closer look

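Among readings of the members, 3 low ones stood apart within their RNA, of 56 groups of channels checked, where chance marks about 1 in 20. Cyp1a2-1 read 15.83 in a channel of intact males, with the next at 16.25. Cyp2b3 read 15.39 in a channel of Hypox males, with the next at 16.02. Cyp2e1 read 16.54 in a channel of Hypox males, with the next at 17.25. All of these were Alexa 555 channels.

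Another 3 contrasts differed between groups by a test of the difference itself. Cyp2e1 rose more after Hypox in males than in females (log2 0.62). Cyp2b15-1 gave -0.40 for the same contrast, and -0.63 for 2 GH injections set against 1. For the sex difference 2 of 14 members were called, beside 13.5% of all tested probes. For 2 against 1 injections 1 of 14 was called, beside 10.4%, so both counts are near those shares. All 3 calls were lost with median centring. The Cyp2b15-1 calls were also lost on the deposited processed signals and with the replicate number as a block.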

How the results depend on the processing

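Among the 14 members no called log2 ratio changed sign under any alternative that gave a test. With 2 arrays per comparison, small changes rest on the spread shared between comparisons. With median centring the called probes were 261 in intact males against females (0 members, 3 at an unadjusted p under 0.05 in limma), 345 in Hypox against intact males (1 member) and 370 in Hypox against intact females (1). They were 7 between Hypox males and females, 0 after 1 GH injection (997 at an unadjusted p under 0.05, and 0 members, 1 unadjusted), 75 after 2 (0 members, 10 unadjusted), 118 for the sex difference of Hypox (0 members, also 0 unadjusted) and 0 for 2 against 1 injections (461 unadjusted, 0 members, 1 unadjusted). On the arrays of a comparison alone with no dye term they were 2686 in Hypox against intact males (7 members), 6 between Hypox males and females, 810 after 1 injection, 3650 after 2, 1483 for the sex difference (0 members, 1 unadjusted) and 210 for 2 against 1 injections (0 members, 11 unadjusted). The processed signals gave 115 between Hypox males and females, 1 member for the sex difference and 0 for 2 against 1 injections (11 unadjusted), and no filter gave 1 member for the sex difference.

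The labels do not say that a replicate number marks a shared pool. Deviations of same-numbered arrays correlated from -0.68 to 0.86 over 15 pairs of comparisons, 6 above 0.1 and 8 below -0.1. Loop comparisons hold an RNA in opposite channels, so mixed signs do not show that pools were not shared. Cyp1a1 read 11.31 and 11.45 in Hypox females on replicate 1 and 9.85 and 9.81 on replicate 2. The fit takes the arrays as independent, and the SEs of loop contrasts would differ if pools were shared. With the replicate block beside the dye, 143 probes were called between Hypox males and females, 1 member for the sex difference and 0 for 2 against 1 injections (11 unadjusted). The block ended the calls of Cyp1a1 between intact sexes, of Cyp2b2-4 after 1 injection and of Cyp2b15-1 in both contrasts, and no other member's. With the slide as a random block (consensus correlation 0.0137) all member calls held.

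With arrays left out the calls ranged from 1292 to 1448 in intact males against females (members 1 to 2), 5648 to 8953 in Hypox against intact males (9 to 10), 3582 to 4157 in Hypox against intact females (4 to 7), 22 to 46 between Hypox males and females (0), 558 to 629 after 1 injection (0) and 4183 to 4870 after 2 (8). For the sex difference they ranged from 1801 to 3682 (members 1 to 2), and for 2 against 1 injections from 83 to 995 (0). With 1 array left out of a comparison the lone array is assumed to vary like the rest. Leaving out a whole replicate of the sex difference dropped 4 arrays, and the 1 residual degree of freedom left lay between GH arrays, so that gave values and no test. Without normalization between arrays 8 of 84 mean levels moved by more than their SD.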

Other observations

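Thyroid hormone responsive genes, which hypophysectomy also touches through the loss of thyrotropin, had 2 higher and 5 lower of 10 in both Hypox comparisons, with medians of -0.77 in males and -0.92 in females. Beside these stand 19.0% higher and 18.5% lower over all probes in males, and 17.9% and 18.5% in females. The 2 that rose are near that share. The deiodinase Dio1 gave -2.42 ± 0.080 in males and -1.30 ± 0.080 in females, and the mitochondrial glycerophosphate dehydrogenase Gpd2 gave -1.80 ± 0.15 and -2.05 ± 0.15, all called. After 1 GH injection 5 rose and 2 fell of 10, Dio1 by 0.77 ± 0.080 among those that rose, and after 2 injections 2 rose and 3 fell. The shares over all probes were 7.49% higher and 6.79% lower after 1 injection, and 15.0% and 15.8% after 2.

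Cyp1a2 and Cyp2e1 are known as enzymes of pericentral hepatocytes. Other pericentral markers had 1 higher and 6 lower of 11 in Hypox males and 1 higher and 3 lower in Hypox females, with glutamine synthetase, Glul, at -1.01 ± 0.13 and -0.54 ± 0.13, both called. After 1 injection 1 rose and 3 fell, and after 2 injections 2 rose and 4 fell, Glul by 0.86 ± 0.13 among those that rose. Periportal markers had 4 higher and 1 lower of 12 in Hypox males, 5 higher and 1 lower in Hypox females, 0 higher and 1 lower after 1 injection and 0 higher and 4 lower after 2. Beside both lists stand 19.0% higher and 18.5% lower over all probes in Hypox males, and 17.9% and 18.5% in Hypox females. With GH the shares were 7.49% and 6.79% after 1 injection and 15.0% and 15.8% after 2.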
